A study of Mus musculus with 8 samples.

Results

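Bile duct marker genes were read in the livers of 10-week-old Rap1 -/- and wild-type mice. The set held 9 genes that mark cholangiocytes, the epithelial cells of the bile ducts: Sox9, Krt19, Krt7, Tspan8, Epcam, Muc1, Spp1, Cldn7 and Cftr. A probe belonged to the set when its accession mapped to one of these symbols. Each gene was read by 1 probe, so that 9 of the 55681 probes and 9 of the 19748 named genes of the array were taken. All 9 probes passed the filter on dim probes, as did 14063 genes in all.

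The study asked how loss of RAP1, a telomere-bound protein that also acts at other sites in the genome, affects gene expression and metabolism. Livers of 4 Rap1 -/- and 4 wild-type mice, 1 mouse per array, were hybridised to 1-colour arrays. The Rap1 -/- mice lacked the gene in the whole body, descended from a germline deletion made with the EIIa-cre deleter line and no longer carried Cre. Both genotypes shared the C57BL6/129SV (90%:10%) background and the age of 10 weeks. The labels do not give the sex, which the study's text gives as female for its young mice, and do not say whether these mice were fed or fasted.

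The biliary epithelium is a minor cell population of the liver and lines the tree of ducts that carries bile from hepatocytes to the gut. Cholangiocytes arise from the same embryonic progenitor as hepatocytes under SOX9 and Notch signals, keep a keratin cytoskeleton of the simple epithelial kind, and dilute and alkalinise bile through chloride, bicarbonate and water transport. When ducts or hepatocytes are injured, small duct-like cells that carry the same markers can expand around the portal tracts, a response called the ductular reaction. In whole liver, fewer cells of a type and less RNA per cell cannot be told apart.

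Of the 2 probes of Terf2ip, which encodes RAP1, one was well above background on 0 of 4 Rap1 -/- and on 4 of 4 wild-type arrays and was at least 18.97-fold lower in Rap1 -/- livers, as the mean of the wild-type livers against the lowest signal well above background (limma, adjusted p = 7.2e-06 over 31068 probes, of which 0.00644% passed). The other probe averaged 0.28 ± 0.18 and -0.92 ± 0.22 in Rap1 -/- and wild-type livers (SD, n = 4 each, log2 scale, adjusted p = 0.127). Each array's 75th percentile of signal lay between 219.8 and 227 on Rap1 -/- arrays and between 179 and 209 on wild-type arrays, and 50.04% to 57.5% of probes on Rap1 -/- arrays and 53.3% to 65.3% on wild-type arrays were well above background. No spot was saturated, and all pairs of arrays correlated at 0.984 to 0.993. The arrays lay on 2 slides, each with replicates of both genotypes, but within a slide wild-type livers held positions 1 and 2 and Rap1 -/- livers positions 3 and 4, so that position and genotype cannot be told apart.

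Promoter windows are shown for Tspan8, the gene whose groups did not overlap, and for Spp1 and Cldn7, whose levels correlated over the mice. Windows of RefSeq (GRCm38.p6) run from 250 bases before to 50 bases after a transcription start, and 7 of the 9 members had at least 1, with 9 windows in all. Krt19 and Sox9 had none in the table. Each sequence is given 5′ to 3′ on the + strand, and capitals mark the motif matches named after it.
Tspan8, chr10:115817034-115817333: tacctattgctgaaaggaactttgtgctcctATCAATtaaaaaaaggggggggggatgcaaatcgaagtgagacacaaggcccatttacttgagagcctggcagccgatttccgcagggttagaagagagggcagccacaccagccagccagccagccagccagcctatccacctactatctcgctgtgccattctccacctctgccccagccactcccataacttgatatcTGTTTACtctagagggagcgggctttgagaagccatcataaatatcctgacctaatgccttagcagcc
Spp1, upstream start, chr5:104434861-104435160: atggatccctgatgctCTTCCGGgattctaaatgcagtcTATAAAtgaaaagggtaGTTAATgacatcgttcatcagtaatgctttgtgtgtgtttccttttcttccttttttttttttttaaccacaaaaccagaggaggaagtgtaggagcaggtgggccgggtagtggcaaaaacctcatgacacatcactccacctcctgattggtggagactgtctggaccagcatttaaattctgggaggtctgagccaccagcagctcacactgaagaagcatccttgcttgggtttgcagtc
Cldn7, upstream start, chr11:69964529-69964828: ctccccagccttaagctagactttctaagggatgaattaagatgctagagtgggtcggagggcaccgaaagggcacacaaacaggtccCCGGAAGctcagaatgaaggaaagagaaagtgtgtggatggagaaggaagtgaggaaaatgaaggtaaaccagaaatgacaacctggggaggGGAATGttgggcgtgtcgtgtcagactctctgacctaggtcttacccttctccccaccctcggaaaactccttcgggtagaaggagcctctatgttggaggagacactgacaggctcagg

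The motifs were chosen after the members' values were known and were searched on both strands, and a match is a description of letters. The Tspan8 window held ATTGAT, the core of the binding motif of the HNF6 (ONECUT) factors, on the - strand 219 bases before the start, and TGTTTAC, a FOXA motif, 18 bases before it. These letters occur in 7.54% and 3.65% of all 32851 windows. The Spp1 window held the TATA motif TATAAA 211 bases before the start, GTTAAT, one arm of the palindromic HNF1 motif, 194 bases before it, and the ETS motif CCGGAAG on the - strand 234 bases before it, letters found in 13.6%, 7.1% and 8.86% of windows. In the Cldn7 window, CCGGAAG began 162 bases and the TEAD motif GGAATG (14.7% of windows) 70 bases before the start. No motif was shared by all 3 windows. Of the other members, Muc1 held TATAAA 31 bases and GGAATG 132 bases before its start. The telomeric repeat unit TTAGGG, which 10.6% of windows hold, was in 0 of the 9 member windows.

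Levels are given as log2 of the processed signal over the array's own 75th percentile, so that 0 is the brightness of the 75th percentile and a difference of 1 is a doubling of signal. Levels of different probes are not compared with each other. Of the 9 genes, 7 averaged higher and 2 lower in Rap1 -/- than in wild-type livers, with a median log2 fold change of 0.45, against 0.02 over all 14063 genes tested. None of the 9 passed the test after Benjamini-Hochberg adjustment (limma, adjusted p of 0.774 or above), and 0.0142% of all genes did, 2 genes that were both lower. At an unadjusted p under 0.05, 3 of the 9, namely Tspan8, Spp1 and Krt19, were higher in Rap1 -/- livers and none lower, against 3.97% of all genes higher and 2.38% lower. The plot of levels by mouse shows the 9 genes in the 8 livers.

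**Figure D1:**
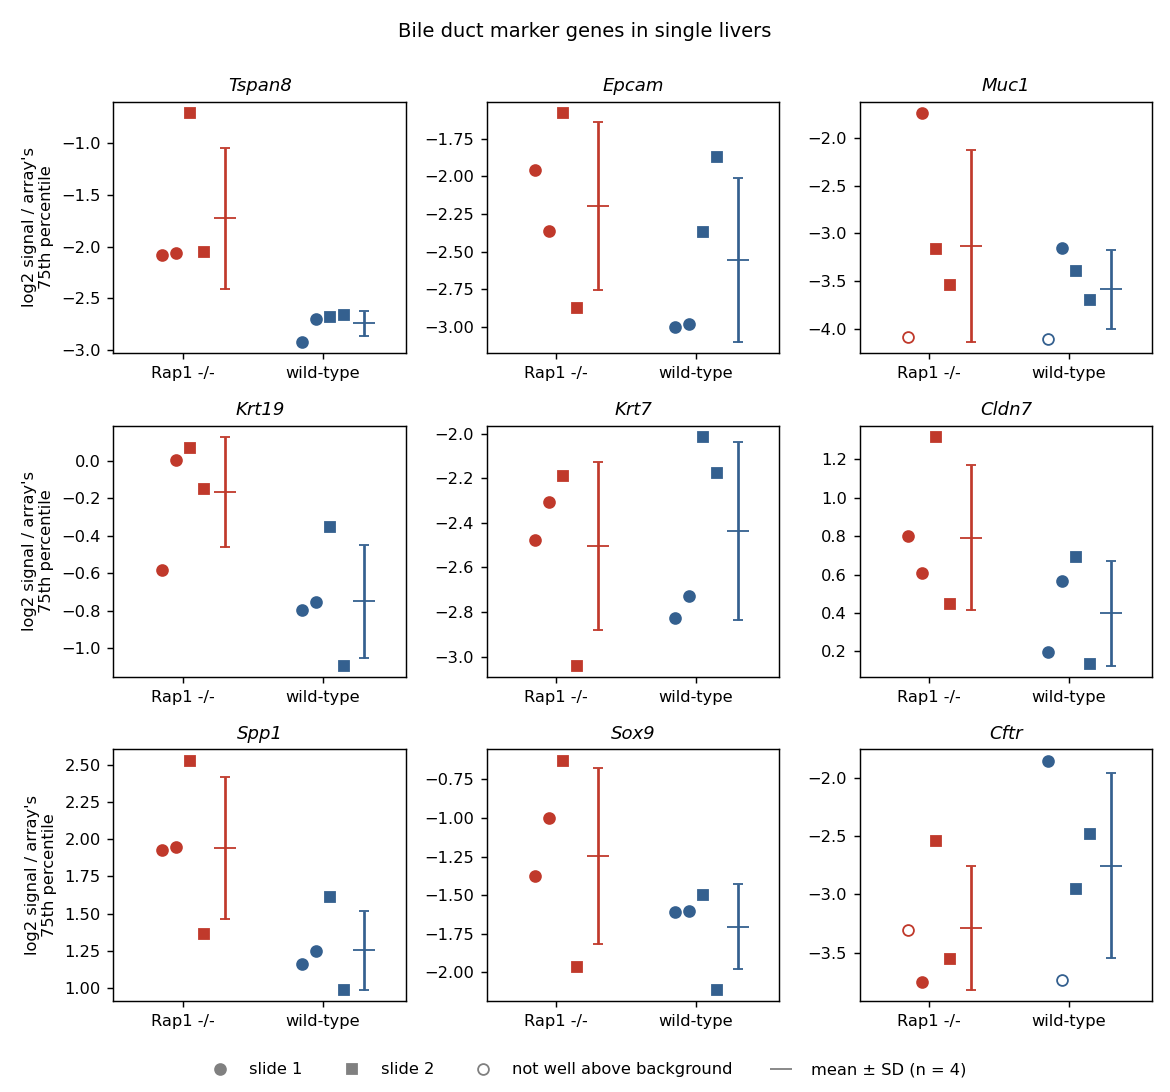
Level of each of the 9 genes in single livers (log2 signal over the array's 75th percentile, vertical axis of its own for each gene), with Rap1 -/- left and wild-type right, circles for slide 1, squares for slide 2, open symbols for probes not well above background and bars for mean ± SD (n = 4). Tspan8 is the one gene whose 4 Rap1 -/- livers, from -2.08 to -0.72, all lie above the 4 wild-type livers, from -2.92 to -2.66.

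Sox9 encodes the transcription factor that marks the ductal plate of the embryo and the duct epithelium of the adult liver. Its level was -1.37, -1.002, -0.63 and -1.97 in Rap1 -/- livers 1 to 4, against -1.61, -1.60, -1.50 and -2.11 in wild-type livers 1 to 4. Rap1 -/- replicates 1, 2 and 3 lay above every wild-type liver, and replicate 4 lay below all but the lowest of them. The difference in log2 level was 0.46 ± 0.27 (SE), with a 95% interval of -0.16 to 1.08, and did not pass the test (limma, adjusted p = 0.816). Sox9 was printed in 10 spots per array, which differed within an array by an SD of 0.064 to 0.149, less than the SD of 0.57 between Rap1 -/- livers and of 0.28 between wild-type livers.

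Krt19 and Krt7 encode intermediate filament keratins by which duct cells are recognised among hepatocytes. Krt19 was at -0.58, 0.01, 0.07 and -0.15 in Rap1 -/- livers, against -0.80, -0.75, -0.35 and -1.09 in wild-type livers. The groups overlapped by 1 liver on each side, Rap1 -/- replicate 1 and wild-type replicate 3. The log2 fold change of 0.58 ± 0.19 (SE), 1.50-fold, with a 95% interval of 0.15 to 1.02, did not pass the test (limma, unadjusted p = 0.014, adjusted p = 0.774), and an exact two-sided permutation test over the 70 partings of the 8 mice gave p = 0.0571.

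Krt7 was at -2.48, -2.31, -2.19 and -3.04 in Rap1 -/- livers, against -2.83, -2.73, -2.02 and -2.18 in wild-type livers. The genotypes overlapped widely, and the highest liver was wild-type and the lowest Rap1 -/-. The log2 fold change was -0.07 ± 0.24 (SE), with a 95% interval of -0.61 to 0.48, and it was 0.39 on slide 1 and -0.52 on slide 2 (limma, adjusted p = 0.984 over both slides).

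Mesothelial cells, which cover the surface of the liver, also express keratins of simple epithelia, among them Krt7 and Krt19. Of the 7 mesothelial markers listed, 4 were tested and none passed. Upk3b, 1 of the 4, met the filter through its wild-type arrays, so that no median of the list is given. Msln, Wt1 and Gpm6a had log2 fold changes of -1.75, -1.11 and -0.20. These were -1.17, -0.52 and -0.05 with normexp and quantile normalization, and -1.17, -0.51 and -0.04 in the authors' value table. Gpm6a, a membrane glycoprotein, had an SE of 0.36 and was at 0.04 with quantile normalization alone. The summed signal of the 4 tested genes, relative to the 75th percentile, was 0.42 to 1.87 in Rap1 -/- and 1.38 to 2.92 in wild-type livers. Of the 3 not tested, Upk1b was well above background on 1, Lrrn4 on 2 and Bnc1 on 0 of the 8 arrays.

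Msln, mesothelin, was at -1.12, 0.12, -3.32 and -0.83 in Rap1 -/- livers, against 0.36, 0.72, 0.92 and -0.14 in wild-type livers (-1.75 ± 0.63, SE, limma, adjusted p = 0.774). Wt1, a transcription factor of mesothelium, was at -2.80, -1.23, -2.71 and -2.79 in Rap1 -/- livers, against -0.68, -1.62, -0.84 and -1.94 in wild-type livers. Upk3b, a uroplakin chosen here after its values were seen, was well above background in 1 of 4 Rap1 -/- livers and 4 of 4 wild-type livers, with a processed signal of 2.96 to 28.4 in Rap1 -/- and 21.6 to 47.4 in wild-type livers, so that most Rap1 -/- values are no measured level and no fold is given. Rap1 -/- replicate 2 was the highest of its genotype for all 3 of these genes and lay within the wild-type range. Krt19, in contrast, averaged higher in Rap1 -/- livers. The part of mesothelium in the keratin levels was not tested.

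**Figure D2:**
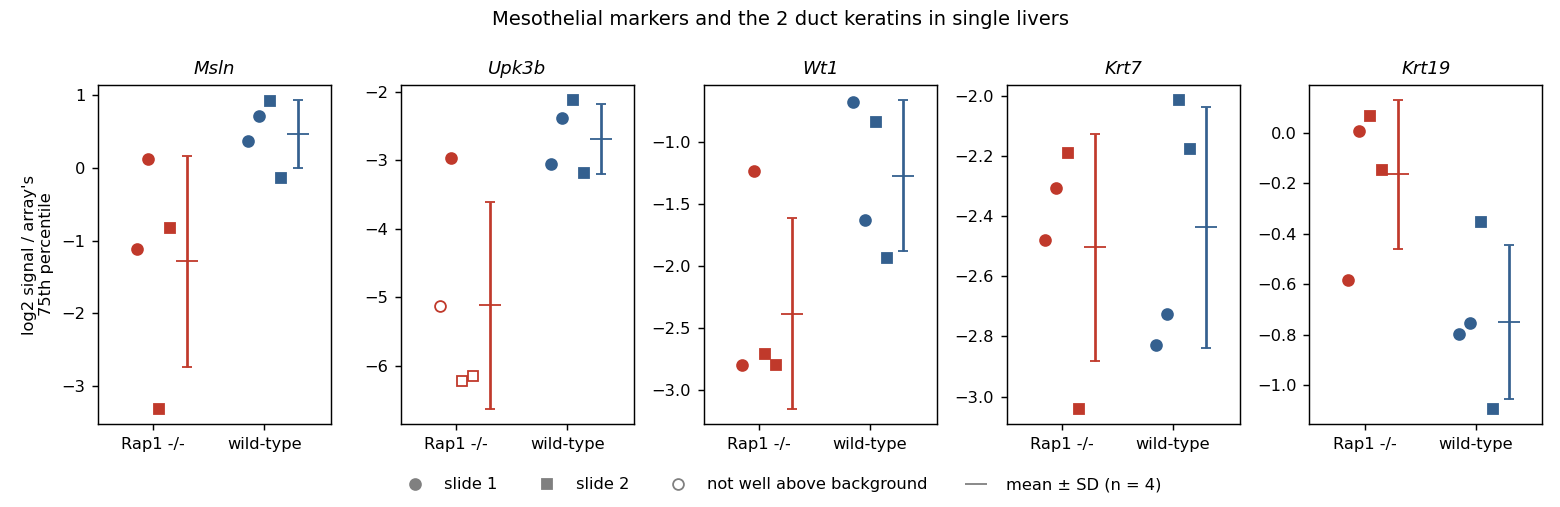
Levels of the mesothelial markers Msln, Upk3b and Wt1 and of the duct keratins Krt7 and Krt19 in single livers (log2 signal over the array's 75th percentile), with Rap1 -/- left and wild-type right, slides, background calls and mean ± SD (n = 4) marked as in the legend. For each mesothelial marker, 1 Rap1 -/- liver, replicate 2, lies among the wild-type livers and the other 3 lie lower, whereas the genotypes overlap widely for Krt7.

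Among the surface proteins, Tspan8, a tetraspanin of the epithelial membrane, had the largest fold change of the 9 genes on the 75th percentile scale, whereas with normexp and quantile normalization Spp1, at 0.55, was above Tspan8, at 0.52. Its level was -2.08, -2.06, -0.72 and -2.05 in Rap1 -/- livers, against -2.92, -2.70, -2.68 and -2.66 in wild-type livers. It was the 1 of 9 genes whose groups did not overlap, and 2.97% of all genes had all 4 Rap1 -/- livers above all 4 wild-type livers and 1.33% all below. Rap1 -/- replicate 3 stood far above the other mice of its genotype, which lay between -2.08 and -2.05. The log2 fold change of 1.01 ± 0.29 (SE), 2.01-fold, with a 95% interval of 0.34 to 1.68, did not pass the test (limma, unadjusted p = 0.00777, adjusted p = 0.774). The exact two-sided permutation p was 0.0286, the smallest that 70 partings allow. Without Rap1 -/- replicate 3 the log2 fold change was 0.67 (limma, adjusted p = 0.375).

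Epcam, an adhesion molecule of epithelial cells and of hepatic progenitors, was at -1.96, -2.37, -1.58 and -2.88 in Rap1 -/- livers, against -3.00, -2.98, -2.37 and -1.87 in wild-type livers. The groups overlapped widely, and the wild-type livers of slide 2 were above those of slide 1. Its log2 fold change was 0.36 ± 0.33 (SE; 95% interval -0.39 to 1.11; limma, adjusted p = 0.881), with 0.83 on slide 1 and -0.11 on slide 2.

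Muc1, a membrane mucin of the apical surface of duct cells, was dim and was not well above background in replicate 1 of either genotype. Its processed signal was 12.9 to 66.6 in Rap1 -/- and 10.4 to 21.8 in wild-type livers, with a spot error of 10.9% to 37.9% as the scanner software estimated it. The level was -4.09, -1.74, -3.16 and -3.54 in Rap1 -/- livers, against -4.11, -3.15, -3.39 and -3.70 in wild-type livers. The groups overlapped, apart from Rap1 -/- replicate 2, which lay far above the other 7 livers. This gave a log2 fold change of 0.45 ± 0.45 (SE, limma, adjusted p = 0.883), and -0.01 without that liver.

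Spp1 encodes osteopontin, a secreted glycoprotein that duct cells produce in the healthy liver and that macrophages and stellate cells can also make. Its level was 1.93, 1.95, 2.53 and 1.37 in Rap1 -/- livers, against 1.16, 1.25, 1.61 and 0.99 in wild-type livers. All Rap1 -/- livers but replicate 4 lay above all wild-type livers, and replicate 4 lay above all but the highest. The log2 fold change of 0.69 ± 0.24 (SE), 1.61-fold, with a 95% interval of 0.15 to 1.23, did not pass the test (limma, unadjusted p = 0.0181, adjusted p = 0.774), and the exact two-sided permutation p was 0.0571. It was 0.73 on slide 1 and 0.65 on slide 2. Markers of the other cells that can make osteopontin stood as follows in the same livers. Of 9 Kupffer cell and macrophage markers tested, 1 was above 0 with a list median of -0.13 (summed signal 150.3 to 253.6 in Rap1 -/- and 192.3 to 265.2 in wild-type livers), and of 11 stellate cell and portal fibroblast markers, 9 were above 0 with a median of 0.09 (117.7 to 137.8 in Rap1 -/- and 112.8 to 127.1 in wild-type livers). At an unadjusted p under 0.05, none of the macrophage markers and 2 of these 11, Acta2 and Col3a1, were higher in Rap1 -/- livers, against 3.97% of all genes. None of either list was lower, against 2.38% of all genes. Acta2, smooth muscle actin, had 0.71 ± 0.29 (SE, limma, unadjusted p = 0.0377, adjusted p = 0.774) and Col3a1, a collagen chain, 0.46 ± 0.17 (SE, limma, unadjusted p = 0.0255, adjusted p = 0.774). Their part in the Spp1 level was not tested.

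Cldn7, a claudin of epithelial tight junctions and of the basolateral membrane, was at 0.80, 0.61, 1.32 and 0.45 in Rap1 -/- livers, against 0.20, 0.57, 0.69 and 0.14 in wild-type livers. Rap1 -/- replicates 1 and 3 lay above all wild-type livers and replicates 2 and 4 lay within the wild-type range. The log2 fold change was 0.39 ± 0.21 (SE; 95% interval -0.08 to 0.87; limma, adjusted p = 0.798).

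Cftr encodes the apical chloride channel that drives bicarbonate secretion into bile. It was the gene of the set with the lowest fold change, with levels of -3.31, -3.75, -2.54 and -3.55 in Rap1 -/- livers, against -1.85, -3.73, -2.95 and -2.48 in wild-type livers. The groups overlapped, and the probe was not well above background in Rap1 -/- replicate 1 and wild-type replicate 2. Its log2 fold change of -0.53 ± 0.40 (SE; 95% interval -1.45 to 0.38; limma, adjusted p = 0.853) was -0.23 without wild-type replicate 1, -0.86 without wild-type replicate 2, and -0.13 with normexp and quantile normalization and in the authors' value table.

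A single liver stood out over the set. Rap1 -/- replicate 3 was the highest of the 8 mice for 6 of the 9 genes, namely Tspan8, Krt19, Spp1, Epcam, Sox9 and Cldn7. Wild-type replicate 4 was the lowest for 4 and wild-type replicate 1 for 3 of the 9. Without Rap1 -/- replicate 3, an alternative chosen after the values were seen, the median log2 fold change of the set was 0.26 and Tspan8, Spp1 and Krt19 still had an unadjusted p under 0.05, against 3.01% of all genes that were higher at that level. Spp1 was then at 0.49, Krt19 at 0.51, Sox9 at 0.26, Cldn7 at 0.22 and Epcam at 0.16. The mean of the standardised levels of the 9 genes was 0.07, 0.51, 1.35 and -0.49 in Rap1 -/- livers, against -0.60, -0.55, 0.13 and -0.42 in wild-type livers, so that Rap1 -/- replicates 1 and 4 lay within the wild-type range.

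Members were then correlated over the 8 mice, 36 pairs in all, with exact two-sided permutation tests over 40320 pairings and Benjamini-Hochberg adjustment over the pairs. Pearson's r was above 0 in 30 of 36 pairs and passed the test in 2, Spp1 with Cldn7 and Spp1 with Sox9. Spp1 and Cldn7 had r = 0.93 (exact p = 0.000694, adjusted 0.0201) and Spearman's rho = 0.90 (exact p = 0.00456, adjusted 0.0411), and r = 0.77 without the 2 livers farthest from the Spp1 median, Rap1 -/- replicate 3 and wild-type replicate 4. For Spp1 and Sox9, r was 0.92 (exact p = 0.00112, adjusted 0.0201) and rho 0.93 (exact p = 0.00223, adjusted 0.0411), and r was 0.75 without the same 2 livers. Sox9 with Cldn7 and Krt19 with Spp1 passed by rank only, each with rho = 0.90 (exact p = 0.00456, adjusted 0.0411) and with r of 0.84 (adjusted 0.0837) and 0.79 (adjusted 0.116). Of the 36 pairs, 10 had an unadjusted p under 0.05 for r. The same shares were not computed for pairs of other genes, so these counts are not read as particular to the set.

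The 2 passing relations kept their size within genotypes. With each level taken as its deviation from the genotype mean, r was 0.92 for Spp1 with Cldn7 and 0.92 for Spp1 with Sox9, yet 0 of 36 pairs passed the exact test over the 576 pairings within genotypes (adjusted p of 0.125 and 0.396 for these). With deviations from the mean of each genotype on each slide, added after the data were seen, r was 0.94 and 0.97. Each such mean is of 2 livers, whose deviations mirror each other, so these r rest on few independent values and nothing is concluded from them. Without Rap1 -/- replicate 3, r was 0.85 and 0.83, and again 0 of 36 pairs passed and 2 had an unadjusted p under 0.05. A slide held 4 mice, too few for a value of r within it.

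Tspan8, Krt19, Spp1, Sox9 and Cldn7, a group formed after the correlations were seen, gave r between 0.70 and 0.93 in all 10 of their pairs, between 0.37 and 0.92 within genotypes, and between 0.31 and 0.85 without Rap1 -/- replicate 3. Without the 2 livers farthest from the median of the pair's first gene, in the order given here, r was between 0.26 and 0.77. Tspan8 with Spp1, for example, had r = 0.87 (exact p = 0.00541, adjusted 0.0649) and 0.64 without Rap1 -/- replicate 3 and wild-type replicate 1. Epcam was closest to Krt7 (r = 0.75, exact p = 0.039, adjusted 0.158, 0.85 within genotypes). Cftr had r between -0.55 and 0.19 with the other 8 genes, and between -0.48 and 0.42 within genotypes, as the map of r over pairs shows. Its probe was not well above background in Rap1 -/- replicate 1 and wild-type replicate 2, which limits these r.

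**Figure D3:**
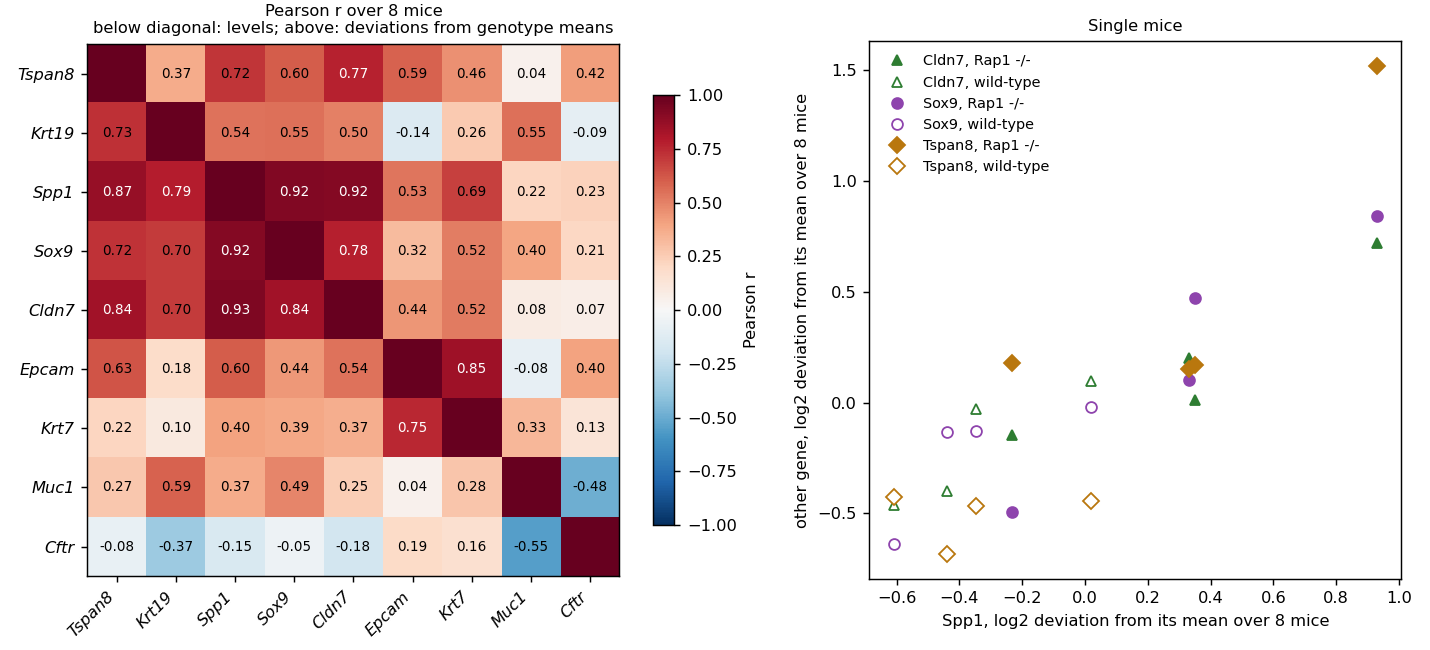
Left, Pearson r of each pair of the 9 genes over 8 mice, from levels below the diagonal and from deviations from genotype means above it, on a colour scale from -1 to 1. Right, deviation of Cldn7, Sox9 and Tspan8 from their own means against that of Spp1 (log2 scale), 1 symbol per liver, filled for Rap1 -/- and open for wild-type. The Rap1 -/- liver at the upper right is replicate 3, and Spp1 reaches r = 0.93 with Cldn7 and 0.92 with Sox9.

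Further genes of the biliary epithelium were read from 4 lists, which held 61 genes, 55 of them tested. None of the 55 passed the test, 40 were above 0, and the median log2 fold change was 0.16, against 0.02 over all genes, of which 55.8% were above 0. At an unadjusted p under 0.05, 7 were higher and 1 was lower in Rap1 -/- livers, against 3.97% and 2.38% of all genes, and 3 had all Rap1 -/- livers above all wild-type livers, against 2.97% of all genes. Leaving out Rap1 -/- replicate 3 gave 2 higher and 1 lower, against 3.01% of all genes higher. Leaving out Rap1 -/- replicate 1, 2 or 4 gave 4, 10 and 9 higher, against 3.64%, 3.19% and 3.89% of all genes. Leaving out wild-type replicate 1, 2, 3 or 4 gave 4, 6, 7 and 3 higher, against 2.67%, 3.26%, 3.93% and 3.55% of all genes.

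In the list of transport and secretion, 9 of 13 tested genes were above 0 with a median of 0.14. Ano1, a calcium-gated chloride channel, was at 0.22, 0.27, 0.74 and 0.63 in Rap1 -/- livers, against 0.11, 0.20, 0.14 and 0.14 in wild-type livers, without overlap and with a log2 fold change of 0.32 ± 0.13 (SE, limma, unadjusted p = 0.042, adjusted p = 0.774). Kcnn2, a calcium-gated potassium channel, had 0.21 ± 0.12 and Car2, a carbonic anhydrase, 0.26 ± 0.17 (SE). Slc5a1, a sodium-glucose cotransporter, was well above background on 3 of 4 Rap1 -/- and 1 of 4 wild-type arrays. No fold is given for it, though it counts among the 9 genes above 0. Sstr2 and Ggt1 were well above background on none and were not tested.

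The primary cilium of cholangiocytes senses bile flow, and a further list held genes of cilia and of polycystic disease. In this list 9 of 10 genes were above 0 with a median of 0.16. Pkhd1, the gene of fibrocystin, and Bicc1, an RNA-binding protein, had 0.36 ± 0.17 and 0.37 ± 0.17 (SE), and in both 3 of 4 Rap1 -/- livers lay above all wild-type livers. Pkd1, the gene of polycystin-1, had -0.22 ± 0.11 and Ift88, an intraflagellar transport protein, 0.18 ± 0.11 (SE). None passed (limma, adjusted p of 0.785 or above).

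In the list of biliary transcription factors and Notch pathway genes, 8 of 12 tested were above 0 with a median of 0.09. Jag1, the Notch ligand that is needed for duct formation, was at -1.14, -0.91, -0.75 and -1.24 in Rap1 -/- livers, against -1.31, -1.34, -1.34 and -1.50 in wild-type livers, without overlap. Its log2 fold change was 0.36 ± 0.12 (SE, limma, unadjusted p = 0.0186, adjusted p = 0.774). Foxj1, a regulator of motile cilia, had 0.71 ± 0.36, Ehf, an ETS factor, 0.28 ± 0.23 and Onecut2, -0.14 ± 0.10 (SE). Elf3 was well above background on 1 array and Tead4 on 0.

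Of other genes of ductal epithelium, 14 of 20 tested were above 0 with a median of 0.24. Lamb3, a laminin chain, was at -1.40, -1.26, -1.39 and -1.38 in Rap1 -/- livers, against -1.66, -1.54, -1.58 and -1.77 in wild-type livers, without overlap and with 0.28 ± 0.09 (SE, limma, unadjusted p = 0.0146, adjusted p = 0.774). Krt8, a keratin that hepatocytes share with duct cells, had 0.48 ± 0.18, Mal, a raft protein of apical transport, 0.45 ± 0.17, and Cd24a, a surface sialoglycoprotein of progenitors and ducts, 0.70 ± 0.27 (SE). The 1 gene lower at an unadjusted p under 0.05 was Cldn4, a claudin of duct epithelium, with -0.56 ± 0.24 (SE, limma, unadjusted p = 0.0491, adjusted p = 0.785). Itgb6, an integrin chain, was well above background on 2 arrays and was not tested.

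Epithelia that could reach a piece of liver from outside its ducts were read in the same way. Of 8 tested genes of gallbladder and intestinal mucous epithelium, 4 were above 0 and 4 below, with a median of 0.12. Their summed signal was 48.9 to 63.4 in Rap1 -/- and 43.4 to 46.99 in wild-type livers. Most of this sum came from Fabp2, the 1 gene of the 8 whose groups did not overlap. Of all genes, 2.97% had all Rap1 -/- livers above all wild-type livers. At an unadjusted p under 0.05, 2 of the 8 were higher, Fabp2 and Tff2, and 1 lower, Muc5b, against 3.97% and 2.38% of all genes. Muc5b, a mucin, had -0.77 ± 0.25 (SE, limma, unadjusted p = 0.0132, adjusted p = 0.774). Tff2 was well above background on 3 of 4 Rap1 -/- and 2 of 4 wild-type arrays, and no fold is given for it. The brightest members of the list were Fabp2, at 0.31 ± 0.13 (SE, limma, adjusted p = 0.785), and Lgals4, at 2.92, 2.79, 2.33 and 2.93 in Rap1 -/- and 2.54, 3.70, 2.31 and 3.00 in wild-type livers. Cdx2, which defines intestinal epithelium, was well above background on 0 arrays and Tff1 and Agr2 on 1 each. Of 6 tested genes of the exocrine pancreas, 3 were above 0 with a median of 0.10 (summed signal 8.63 to 9.04 in Rap1 -/- and 6.83 to 8.91 in wild-type livers), and Prss2 and Pnlip were well above background on 0 arrays. Their part in the member levels was not tested.

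Hepatocyte markers had a median of 0.00 over 10 genes, 4 of them above 0, with a summed signal of 5676 to 5727 in Rap1 -/- and 5943 to 6539 in wild-type livers on the 75th percentile scale. Alb, the albumin gene, was at 10.78, 10.76, 10.82 and 10.79 in Rap1 -/- livers, against 11.02, 11.11, 10.91 and 10.95 in wild-type livers. Its log2 fold change of -0.21 on this scale was 0.0005 with normexp and quantile normalization, 0.019 with quantile normalization and 0.011 in the authors' value table, and its processed signals overlapped, at 384925 to 402437 in Rap1 -/- and 372201 to 427709 in wild-type livers. The medians of the other lists were 0.03 over 8 sinusoidal endothelial genes, -0.17 over 7 T and NK cell genes, -0.12 over 6 B and plasma cell genes and -0.43 over 4 neutrophil genes, and none of these genes passed the test.

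**Figure D4:**
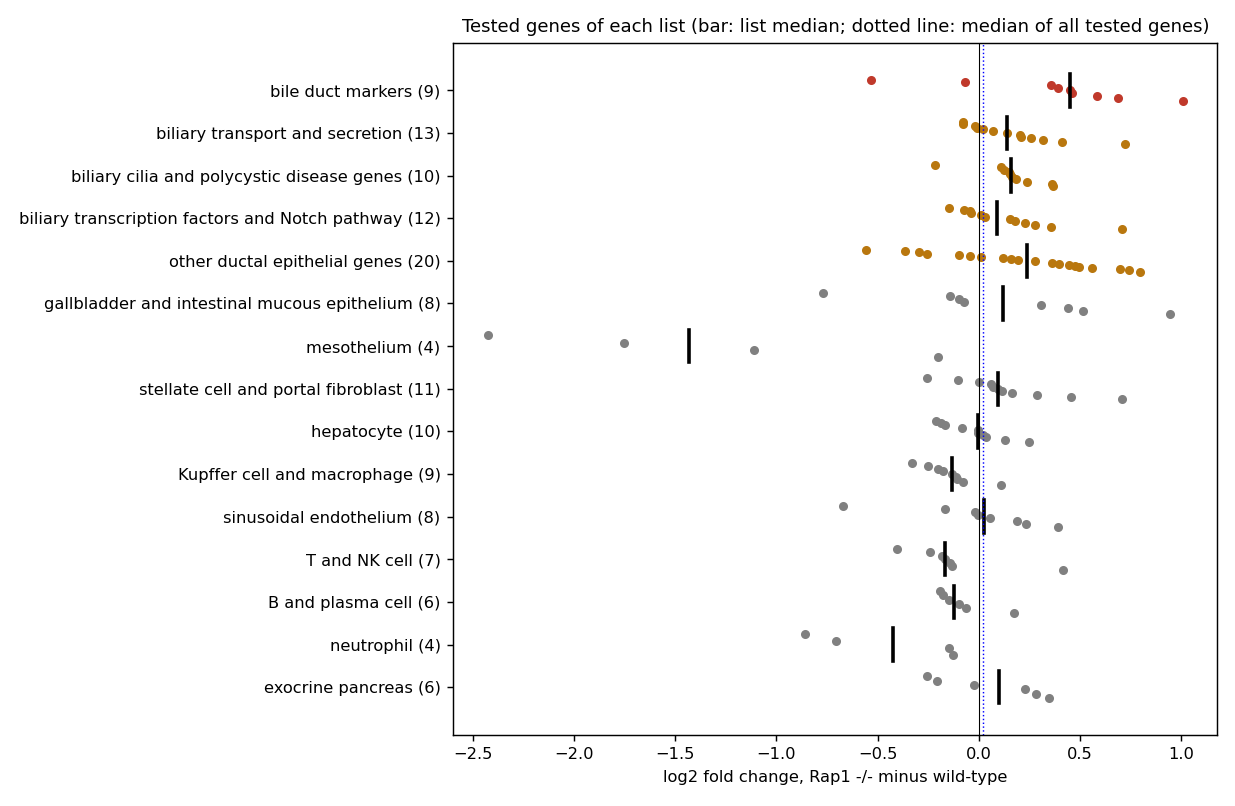
Log2 fold change, Rap1 -/- minus wild-type, of every tested gene of each list (number tested in brackets), with a black bar at the list median, a solid line at 0 and a dotted line at the median of all tested genes. The bile duct markers centre on 0.45 and range from -0.53 to 1.01. The mesothelial bar, at -1.43 on this scale and -0.41 with normexp and quantile normalization, counts Upk3b and is no measured median. Upk3b and Slc5a1 were not well above background in most livers of 1 genotype, so that their points are no measured fold.

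The genes whose levels followed those of the set most closely were ranked by Pearson's r with the mean standardised level of the 9 genes over the 8 mice, as a description in which all genes share the same arrays and in which the mean rests in large part on Rap1 -/- replicate 3. The highest among genes outside all lists were Ccdc122 (0.96), Kifc3 (0.96), Tgfb2 (0.95), Ift57 (0.95) and Ears2 (0.95). Ift57 is a component of the intraflagellar transport machinery, Kifc3 a minus-end kinesin, Tgfb2 a growth factor of the TGF-beta family and Ears2 a mitochondrial glutamyl-tRNA synthetase. Ift57 was at -1.12, -1.02, -0.58 and -1.46 in Rap1 -/- livers, against -1.81, -1.55, -1.40 and -1.64 in wild-type livers, and none of the 5 passed the test between genotypes.

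An r above 0.7 with the set was reached by 4.53% of the other 14054 tested genes and by 13 of the 55 further biliary genes (23.6%). An r below -0.7 was reached by 2.13% of the other genes and by 2 of the 55 (3.64%), Cldn4 with -0.90 and Onecut2 with -0.76. The 13 genes above 0.7 were Sctr, the secretin receptor, in transport, Pkhd1 and Bicc1 among the cilium and polycystic disease genes, Jag1, Foxj1, Hey1 and Sox4 among the transcription factors and Notch genes, and Tm4sf4, St14, Prom1, Krt8, Cd24a and Mmp7 among the other ductal genes. Of the lists of other cells, the stellate cell and portal fibroblast list had 3 of 11 above 0.7, the collagen genes Col1a1, Col3a1 and Col1a2. The gallbladder and intestinal list had 1 of 8 above 0.7, Fabp2. Mesothelium, hepatocyte, Kupffer cell, endothelial, T and NK cell, B cell, neutrophil and pancreas lists had 0 above 0.7. Below -0.7 lay 1 of 10 hepatocyte genes, Apob, 1 of 6 pancreas genes, Cel, and 1 of 6 B and plasma cell genes, Cd79a. Col1a2, in portal fibroblasts and stellate cells, was at 2.78, 3.04, 3.13 and 2.90 in Rap1 -/- livers, against 2.69, 2.88, 2.75 and 2.87 in wild-type livers.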

How the data were processed

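Total RNA of 8 mouse livers was labelled with Cy3 and read on 1-colour Agilent arrays, scanned per the file headers with Feature Extraction 10.7.3.1. The deposited scanner files give a processed intensity from which background was subtracted, and the authors' value table holds log2 values that differ by a median of 0.00167 from normexp (offset 50) and quantile normalization, with 99.5% of values within 0.05. Array number limits the precision.

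Outlier spots were left out, log2 of the processed signal minus each array's 75th percentile was averaged over repeat spots, and probes well above background on at least 4 of 8 arrays were kept (31068). Each of 14063 genes was read by its brightest probe. Accessions, looked up as RefSeq transcripts (GRCm38.p6) and otherwise as Ensembl identifiers, gave 1 symbol to 26050 probes (46.8%). No coordinates were used for genes, since the array's annotation is of another build. Genotypes were compared with limma 3.58.1 (R 4.3.3) without covariates, Benjamini-Hochberg adjusted over all genes at 0.05, checked on simulated data. The members, lists and named genes (smallest p of each biliary list, brightest of each other list) were chosen with earlier results of these data known. The labels call the replicates biological. Normexp used the median signal, since the files read here hold no mean signal.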

Additional observations from a re-analysis of the deposited data

Results flagged for a closer look

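A liver was singled out where its gap to the nearest of the other 3 of its genotype took most of the group's range by Dixon's criterion, for the 9 bile duct markers and the other named genes. This held in 9 of 104 groups of 4, and chance gives about 1 in 20. Among the markers, Tspan8 in Rap1 -/- replicate 3 was at -0.72, with the next liver at -2.05, and Tspan8 in wild-type replicate 1 was at -2.92, with the next at -2.70. The same Rap1 -/- replicate 3 was set apart for S100a9, a neutrophil calgranulin, at 2.33 (next 1.22) and for Slc5a1 at -3.17. For Slc5a1 the next value, -3.91, was not well above background, so that this gap is no measured difference. Among other biliary genes, Jag1 was at -1.50 in wild-type replicate 4 (next -1.34) and Lamb3 at -1.26 in Rap1 -/- replicate 2 (next -1.38). Of other cell types, Wt1 of mesothelium was at -1.23 in Rap1 -/- replicate 2 (next -2.71), Nkg7 of NK cells at 2.60 in wild-type replicate 1 (next 2.42) and Elane of neutrophil precursors at 2.09 in Rap1 -/- replicate 1 (next 1.81).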

How the results depend on the processing

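No member and no gene of the further biliary lists passed the adjusted threshold under any alternative run. Over all genes, 2 passed, against 3 with a gene's probes averaged or with trended robust variances, 1 with quantile normalization, no filter, a filter on all 8 arrays, slide as a block or slide 2 alone, 0 with normexp and quantile normalization, the authors' value table or slide 1 alone, and 1 in every fit without 1 liver. Of 169 fold changes of members under alternatives, 7 changed sign: Krt7 was 0.031 with quantile normalization, 0.39 on slide 1, 0.11 without Rap1 -/- replicate 4, 0.073 and 0.019 without wild-type replicates 3 and 4 (range over left-out livers -0.20 to 0.11), Epcam -0.11 on slide 2, and Muc1 -0.011 without Rap1 -/- replicate 2 (range -0.011 to 0.77). None of these members was called, and the cause was not tested. The 2 passing correlations became 0 as deviations from genotype means and 0 without Rap1 -/- replicate 3. The set's median of 0.45 was 0.28 with normexp and quantile normalization and 0.28 in the authors' value table. Same-numbered livers did not deviate together (r of -0.18 to 0.10, 0 of 4 best with their own number), and with the replicate block 0 genes passed. Muc1 and Cftr lay near background on 2 arrays each, which limits their fold changes.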
